A study of Mus musculus with 2 samples.

Results

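The 4 Hox clusters of the mouse (Hoxa, Hoxb, Hoxc and Hoxd) were examined by DNase-seq in old cerebral cortex, and nearly all of their promoters were closed. A Hox gene was any protein-coding gene of the GENCODE M21 annotation (mm10 build) named Hoxa, Hoxb, Hoxc or Hoxd with a number. There were 39 such genes among 21938 protein-coding genes, namely 11 Hoxa genes on chromosome 6, 10 Hoxb genes on chromosome 11, 9 Hoxc genes on chromosome 15 and 9 Hoxd genes on chromosome 2. Each cluster was taken from its first to its last Hox gene (the core), plus 50 kb on each side (the flanks). In these 4 windows 34 of the 132054 peaks of library 1 lay, and 45 of the 139799 peaks of library 2.

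DNase-seq cuts nuclear DNA with the enzyme DNase I, which reaches open chromatin more easily, and a peak is a stretch with many cuts. Both libraries came from left cerebral cortex of female B6CASTF1/J mice, the offspring of C57BL/6J and CAST strains, aged 18 to 20 months and obtained from The Jackson Laboratory. They formed 1 group, with no other tissue, age or treatment, so that no contrast could be tested. The libraries were made from separate biosamples that carry the same donor identifier, and any spread between them may be technical. Bulk tissue was used, so that fewer open cells and less opening per cell cannot be told apart. The number of reads behind the values is unknown.

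Hox genes encode homeodomain transcription factors that give cells of the embryo their position along the axis from head to tail. Within a cluster the genes lie in the order of their paralog number, with low numbers used nearer to the head and high numbers nearer to the tail. The forebrain, from which the cortex forms, lies in front of the region where Hox genes are switched on, and silent Hox clusters are a classic target of Polycomb repressors. CTCF, a zinc finger protein that works with cohesin to form boundaries between chromatin domains, is known to bind inside the clusters.

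By the mean of both libraries, the strongest shared open site within each core lay in the matching interval in all 4 clusters. This interval runs between the principal starts (those of the main annotated transcripts) of paralog 9 and of its neighbour on the head side. The site itself was not alike in all clusters. In Hoxa its middle lay 43 bases from a further start of Hoxa7. In Hoxb, Hoxc and Hoxd the middle lay 2944, 2996 and 2204 bases from the nearest Hox start. The part of each of these peaks closest to a degenerate CTCF consensus of 15 letters is printed here in the direction of the consensus, in capitals, with the 15 bases that follow it in lower case, because these 4 sites can be compared letter by letter. All sequences were read from the RefSeq copy of the mm10 genome (GRCm38.p6). The Hoxa stretch was at chr6:52221791-52221820 on the minus strand, the Hoxb stretch at chr11:96278948-96278977, the Hoxc stretch at chr15:102987593-102987622 and the Hoxd stretch at chr2:74702395-74702424, the last 3 on the plus strand.
Hoxa: CCAGGAGATGGCAGTgtggctccacgcaag
Hoxb: CCGCTAGATGGCATCcttgctccatatgaa
Hoxc: ACGCGAGGTGGCGCTgttgctcaatgttag
Hoxd: CCACTAGAGAGCGCTgttgctccactttct

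The stretch in capitals was 1 letter off the consensus in Hoxa and Hoxd, 2 letters off in Hoxb and 3 letters off in Hoxc. The Hoxc stretch thus missed the limit of 2 letters off used here for a CTCF-like stretch. A stretch up to 3 letters off was present in 41.9% of all matched pairs of peaks of the genome. The following 15 bases were not used to choose the stretch, and they were compared across the clusters. Hoxc shared 10 of these 15 bases with Hoxa, 10 with Hoxb and 10 with Hoxd, Hoxd shared 9 with Hoxa and 9 with Hoxb, and Hoxa shared 8 with Hoxb. The same 15 positions were read behind the 20485 CTCF-like stretches, at most 2 letters off, found in all matched pairs of the genome. They matched each Hox sequence at a median of 4 bases. Of those stretches, between 0.376% and 0.649% matched a Hox sequence at 10 or more positions, between 1.40% and 1.99% at 9 or more (for the pairs of Hoxd with Hoxa and Hoxb), and 5.41% matched Hoxa and 4.49% Hoxb at 8 or more. Clusters that arose from a common ancestor can share sequence. The source of this likeness was not tested, and no chance test was run on it. The percentages describe the genome set only, and the Hoxc stretch, 3 letters off, falls outside that set.

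The strongest of all cluster peaks, in Hoxb, is shown over its full shared width (chr11:96278861-96279060, outside genes), with the stretch closest to the CTCF consensus in capitals.
Hoxb peak between Hoxb9 and Hoxb8: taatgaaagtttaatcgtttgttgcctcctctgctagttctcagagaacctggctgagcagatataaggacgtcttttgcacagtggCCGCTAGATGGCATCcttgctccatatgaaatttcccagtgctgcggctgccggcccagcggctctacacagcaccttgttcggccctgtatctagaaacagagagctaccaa
The peaks at the only 2 principal Hox starts that were open in both libraries are shown for comparison. The Hoxc5 peak (chr15:103013621-103013800, in an intron of the longer Hoxc5 transcript and just upstream of the principal start) has its CTCF-like stretch in capitals, 2 letters off. In the part of the Hoxd1 peak upstream of the gene (chr2:74762883-74762979, running into the first bases of the noncoding gene Haglr on the other strand), capitals mark the 13 CpG dinucleotides.
Hoxc5 peak: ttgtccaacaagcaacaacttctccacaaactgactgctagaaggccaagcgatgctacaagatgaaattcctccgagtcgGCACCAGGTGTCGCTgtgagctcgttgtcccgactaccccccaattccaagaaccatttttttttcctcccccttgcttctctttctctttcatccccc
Hoxd1 peak: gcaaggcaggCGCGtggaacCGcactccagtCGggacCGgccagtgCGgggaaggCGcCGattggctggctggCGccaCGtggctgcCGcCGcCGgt

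A promoter was called open where a peak came within 500 bases of an annotated start of the gene. By this measure 4 of the 39 Hox genes were open in both libraries, against 63.6% of all protein-coding genes. In library 1 the 4 were the only open Hox genes (all genes, 64.5%), and in library 2 there were 6 (all genes, 66.5%). The other 33 had no promoter peak in either library. Among them were Hoxa3, Hoxa4, Hoxa5, Hoxa6, Hoxa9, Hoxa11, Hoxa13, all Hoxb genes but Hoxb13, all Hoxc genes but Hoxc5, and all Hoxd genes but Hoxd1.

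Hoxa7, a central gene of its cluster that helps to pattern the trunk, had the highest promoter signal, the authors' strength value of its strongest promoter peak. Its signal was 1.31 in library 1 and 1.94 in library 2 (mean 1.62 ± 0.450 SD, n = 2). Hoxc5, which acts in the neck and upper trunk, followed with 0.783 and 0.993 (0.888 ± 0.149). Both libraries gave the same order of the open genes, with Hoxa7 first. Hoxa10, which patterns the lower trunk and the uterus, had 0.490 and 0.697 (0.593 ± 0.146). Hoxd1, a gene of the head end of its cluster, had 0.395 and 0.543 (0.469 ± 0.105). Neighbours in this order overlapped over the 2 libraries for Hoxa10 and Hoxd1 only, and every value was higher in library 2.

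Even these open promoters were weak. The median promoter signal of the 13956 protein-coding genes open in both libraries was 3.13 in library 1 and 3.47 in library 2. Among open promoters of the same library, Hoxa7 stood at the percentiles 22.4 and 30.5, Hoxc5 at 12.5 and 16.0, Hoxa10 at 5.48 and 10.3 and Hoxd1 at 3.36 and 7.11. The median over all 39 Hox genes was 0 in both libraries.

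**Figure D1:**
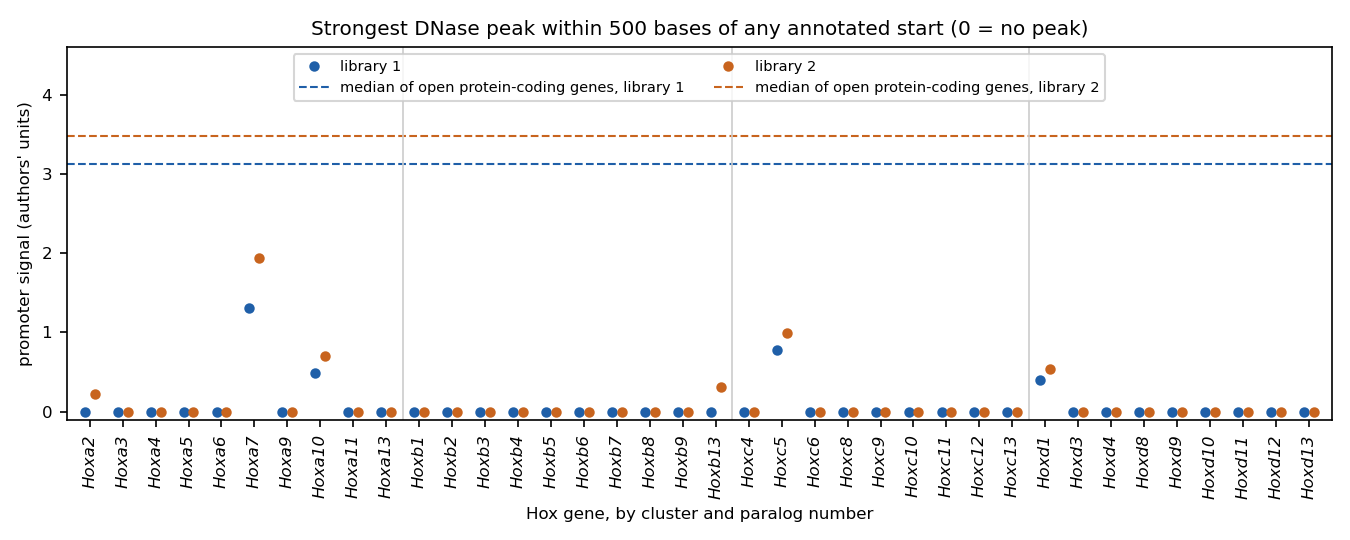
Promoter signal of Hox genes in library 1 (blue) and library 2 (orange), in the authors' units, with 0 for no peak. Dashed lines give the median of the protein-coding genes open in both libraries, 3.13 and 3.47. Hoxa7, Hoxa10, Hoxc5 and Hoxd1 are above 0 in both libraries, Hoxa2 and Hoxb13 in library 2 only, and no gene shown reaches either line.

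For Hoxa7 and Hoxa10 the peak did not lie at the principal start, the start of the transcript that the annotation ranks as the main one. The nearest peak was 3196 bases away from the principal start of Hoxa7 in library 1 and 4196 in library 2, and for Hoxa10 the distances were 5527 and 5569 bases. Both genes counted as open through further starts upstream in the annotation. With principal starts alone, Hoxc5 and Hoxd1 remained (all genes, 59.3%). The Hoxc5 peak ended 15 bases from the principal start, and the Hoxd1 peak reached over it. The same Hoxd1 peak served the start of Haglr, a long noncoding RNA transcribed away from Hoxd1, with the same signals of 0.395 and 0.543.

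The 2 genes open in library 2 only were weaker still. Hoxa2, the Hox gene used nearest to the head in the developing hindbrain, had no peak in library 1 and a signal of 0.222 in library 2. Hoxb13, the last gene of the tail end of its cluster and a prostate and tail regulator, had none in library 1 and 0.314 in library 2. These values stood at the percentiles 0.604 and 2.08 of the open promoters of library 2. Within 500 bases of the Hoxb13 start, the per-base tables listed 28 bases with a false discovery rate under 0.05 in library 1 and 102 in library 2. Whether the 28 bases lie within the library 2 peak was not examined. For Hoxa2 there were 0 such bases in library 1 and 1001 of 1001 in library 2.

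Open Hox promoters were thinly spread over the clusters. Hoxa had 2 of 11, Hoxb 0 of 10, Hoxc 1 of 9 and Hoxd 1 of 9 open in both libraries. Along the axis, 1 of 8 anterior genes (paralogs 1 to 3), 2 of 15 central genes (4 to 8) and 1 of 16 posterior genes (9 to 13) were open. These counts are too small to order the clusters or the positions. The per-base tables gave the same picture, since 33 of 39 Hox genes in each library had no base with a false discovery rate under 0.05 at any start, against 34.6% of all protein-coding genes in library 1 and 32.8% in library 2. Hoxb4 had such bases in library 1 without a peak.

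Many closed Hox promoters were CpG-rich. CpG-rich starts, taken here as at least 50% G and C and an observed to expected CpG ratio of at least 0.6 within 500 bases of the principal start, are typical of promoters that are open in most tissues. Of the 10098 protein-coding genes with such a start 95.4% were open in both libraries, and of the others 36.5%. Among Hox genes 24 of 39 had a CpG-rich start, and 3 of these 24 were open in both libraries (Hoxa7, Hoxa10 and Hoxd1). The other 21 belonged to the 467 CpG-rich genes of the genome (4.62%) that were not open in both. Openness was counted at any start, for Hox genes and for all genes. At the CpG-rich principal start itself, Hoxa7 and Hoxa10 had no peak within 500 bases in either library, and Hoxd1 had a peak in both. Hoxc5, the open gene without a CpG-rich start, had 49.0% G and C and a ratio of 0.530.

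A wider promoter window brought in more Hox genes. Within 2000 bases of a start 9 Hox genes had a peak in both libraries (all genes, 67.8%), with Hoxa3, Hoxb3, Hoxb5, Hoxb8 and Hoxc6 added. Hoxa3 had 0.735 and 1.09, Hoxb5 had 0.953 and 0.592, and the other 3 lay below 0.6 in both libraries. The median distance from a Hox gene to the nearest peak, over all its starts, was 4065 bases in library 1 and 4058 in library 2, and for all protein-coding genes it was 0 in both. Of the 25 peaks matched between the libraries in the windows, 21 lay over 500 bases from any Hox start, a share near that of all matched pairs of the genome from protein-coding starts (80.1%). With the shorter and stricter peak list 2 Hox genes stayed open in both libraries (all genes, 59.5%), and with peaks at or above the median signal also 2 (all genes, 58.2%), in both cases Hoxa7 and Hoxc5.

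The cluster windows were not bare of peaks. They held 3.81 peaks per 100 kb in library 1 and 5.05 in library 2, against 4.85 and 5.13 over the genome, and the cores held 5.08 and 7.32. Without the stretch of 14 weak library 2 peaks at Hoxa2, described further on, library 2 had 3.48 in the windows and 4.47 in the cores. Hoxa had 8 peaks in library 1 and 21 in library 2, Hoxb 13 and 12, Hoxc 5 and 5, and Hoxd 8 and 7. All Hoxc peaks lay in the core, and its flanks had none in either library. Footprints, short protected stretches within open DNA that can mark a bound protein, numbered 54 in library 1 and 72 in library 2, or 6.06 and 8.07 per 100 kb against 9.96 and 11.9 over the genome. Bases with a false discovery rate under 0.05 numbered 8034 and 12313, or 9.01 and 13.8 per kb against 14.7 and 16.6. In library 2, 4697 of the 12313 bases lay in the stretch at Hoxa2.

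Between the libraries, 25 of the peaks formed matched pairs, peaks that were each other's strongest overlap, 18 in the cores and 7 in the flanks. Of the window peaks of library 1, 73.5% overlapped a peak of library 2 (exact binomial 95% interval 55.6 to 87.1, for counting error only; all peaks, 77.8%). Of those of library 2, 55.6% overlapped a peak of library 1 (40.0 to 70.4; all peaks, 73.2%), and 80.6% did so once the stretch at Hoxa2 was left out. In 22 of the 25 pairs the signal was higher in library 2 (all matched pairs, 59.4%). The median log2 ratio of library 2 to library 1 was 0.37 (SD over pairs 0.38) against 0.09 for all matched pairs of the genome. The 3 exceptions were all in the Hoxb window, where the pair nearest to Hoxb5 had 0.953 and 0.592.

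**Figure D2:**
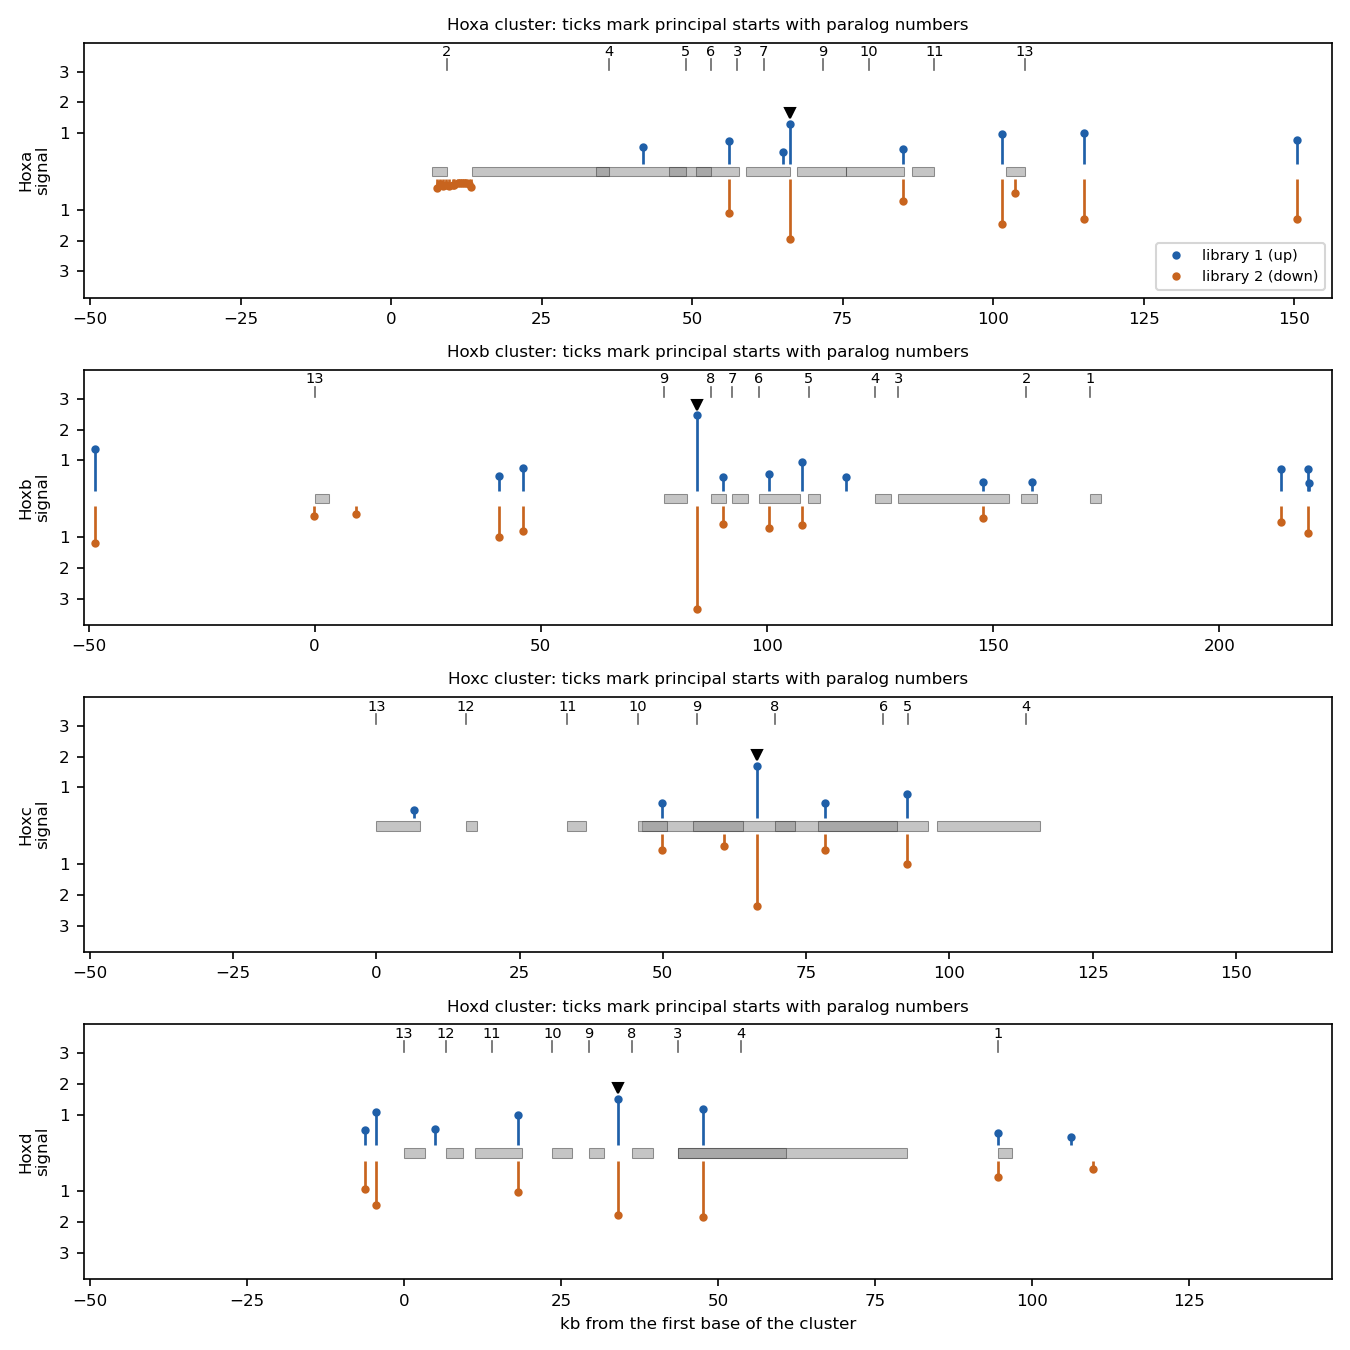
Peaks along the 4 cluster windows, with library 1 drawn upward and library 2 downward (signal in the authors' units), against the distance in kb from the first base of the core. Grey boxes are Hox genes, and ticks mark principal starts by paralog number (not every gene is drawn). Black triangles mark the strongest matched pair of each core by the mean of both libraries (in Hoxd, library 2 alone puts another first). In every cluster that pair lies between the principal starts of paralog 9 and of its neighbour on the head side. The dense row of low library 2 peaks near 10 kb in Hoxa covers Hoxa2.

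The matched pairs of the cores fell in 16 of the 35 intervals between neighbouring principal starts. The principal starts of Hoxa3 and Hoxd3, at the upstream end of long transcripts, lay out of the order of the paralog numbers. In Hoxa the strongest pair lay between Hoxa7 and Hoxa9 (chr6:52221701-52221920), at 1.31 and 1.94, and was the same peak that opened the upstream start of Hoxa7, in an annotated UTR. The next in the Hoxa core lay between Hoxa11 and Hoxa13 at 0.987 and 1.46, in an exon of the unclassified transcript 9530018H14Rik. The strongest pair was 1.33-fold above it in the mean of both libraries. Beyond Hoxa13, a flank pair had 1.01 and 1.29.

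In Hoxb the pair between Hoxb9 and Hoxb8 reached 2.46 and 3.34 (2.90 ± 0.617), the percentiles 91.2 and 93.7 of all peaks of each library. It was 3.74-fold above the next core pair, at 0.762 and 0.789 in the long gap between Hoxb13 and Hoxb9. The other strong Hoxb pair was in the flank, in an intron of Ttll6, a tubulin-modifying enzyme gene outside the Hox family, at 1.37 and 1.19, and the third of the window lay beyond Hoxb1 at 0.708 and 0.851. Among core pairs, Hoxb had the widest step down from the strongest pair to the next, and with the flanks included its step was 2.27-fold, about that of Hoxc.

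In Hoxc the pair between Hoxc9 and Hoxc8 (chr15:102987521-102987700, in an intron of the longest Hoxc5 transcript) had 1.70 and 2.34 (2.02 ± 0.454), 2.28-fold above the Hoxc5 promoter pair. The third in rank, at 0.504 and 0.543, lay in a coding exon of Hoxc10. In Hoxd the pair between Hoxd9 and Hoxd8 (chr2:74702321-74702500, outside genes) had 1.52 and 1.78 (1.65 ± 0.178). It was close to the pair between Hoxd3 and Hoxd4, at 1.18 and 1.82, in an exon of the antisense RNA Hoxd3os1. The latter was the stronger of these 2 in library 2, so the interval next to paralog 9 held the strongest core pair in 4 of 4 clusters in library 1 and in 3 of 4 in library 2. A flank pair beyond Hoxd13 followed with 1.10 and 1.42. Signals of these leading pairs differed between the libraries by as much as the lead itself in Hoxa and Hoxd, but not in Hoxb and Hoxc. In Hoxa the 2 leading core pairs shifted alike (library 2 over library 1, 1.49 and 1.47), and the same pair led in each library. Only in Hoxd did library 2 put another core pair first.

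**Figure D3:**
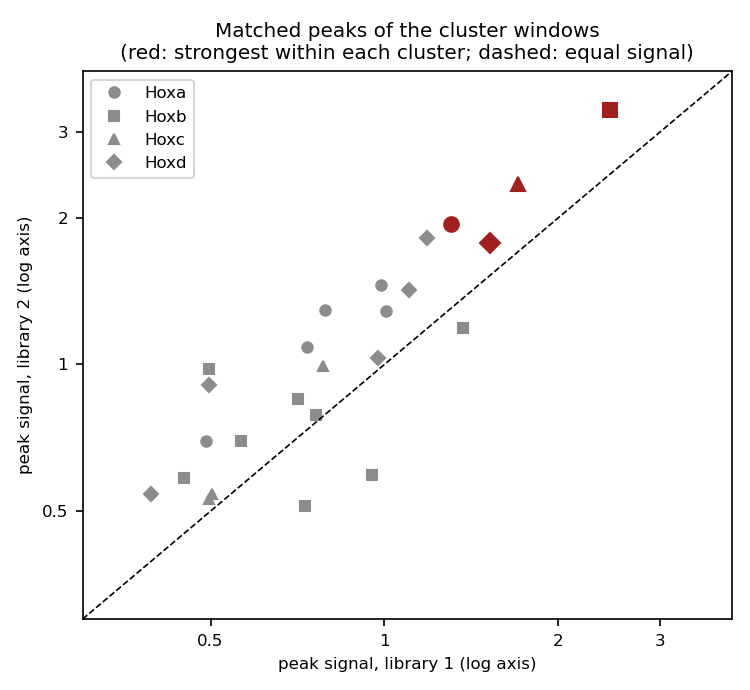
Signal of the 25 matched pairs of the cluster windows in library 1 (horizontal, log axis) and library 2 (vertical, log axis), with the symbol giving the cluster. Red symbols are the strongest core pairs, at 1.31 and 1.94 in Hoxa, 2.46 and 3.34 in Hoxb, 1.70 and 2.34 in Hoxc and 1.52 and 1.78 in Hoxd. 22 pairs lie above the dashed line of equal signal.

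The 6 motifs searched under the pairs were each read against all matched pairs of the genome. Every motif was searched on both strands of the part shared by both peaks of a pair. The CTCF core, a pattern of 12 letters, was found in 3 of the 25 pairs (12%), against 9.19% of all matched pairs of the genome, which is close to the background. Since that core is strict, a degenerate consensus of 15 letters was added after its result had been seen. A stretch at most 2 letters off was present in 12 of 25 pairs (all matched pairs, 20.6%; those over 500 bases from protein-coding starts, 22.6%). Of the core pairs 10 of 18 had it, and of the flank pairs 2 of 7. With up to 3 letters off, 20 of 25 pairs had a stretch (all matched pairs, 41.9%). A match is a description of the letters and shows no binding.

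Footprints lay on these stretches about as often as on such stretches elsewhere. A footprint overlapped the CTCF-like stretch in 12 of 12 pairs in library 1 and in 11 of 12 in library 2, against 81% and 84.7% of the CTCF-like stretches of all matched pairs. The middle of the stretch was at a median of 7.5 bases from the middle of the pair. Of the 12 stretches 6 were on the plus strand. In the cores, stretches on the plus strand numbered 1 of 3 in Hoxa, 1 of 4 in Hoxb, 1 of 1 in Hoxc and 2 of 2 in Hoxd. Hoxa genes are transcribed along the minus strand and those of the other clusters along the plus strand, so that 3 of the 4 Hoxb stretches ran against the genes.

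The remaining motifs were searched as exact letters. The PBX-HOX motif TGATNNAT, which a Hox protein can bind together with a PBX cofactor, was in 0 of 25 pairs (all matched pairs, 4.49%). The homeodomain motif TAATTA was in 0 (2.19%) and the AP-1 motif TGANTCA in 0 (10.8%). The MEIS motif TGACAG was in 1 (13.6%). The GC box GGGCGG was in 6 (18.3%), more pairs than the exact CTCF core. With 25 pairs, a motif present in a few percent of peaks can be missed by counting alone.

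The clusters differed between the libraries at 1 place above all. Over 5.84 kb at Hoxa2 (chr6:52163225-52169060), library 2 had 14 peaks and library 1 had 0. The 14 peaks had signals from 0.123 to 0.277, the percentiles 0.308 to 9.19 of library 2. None held a CTCF-like stretch at most 2 letters off. In library 2, 80.5% of the bases had a false discovery rate under 0.05 and 3 footprints were listed, and in library 1 there were 0 such bases and 0 footprints. The stretch also took in the start of Hoxaas2, a noncoding transcript, at 0.247 in library 2 and with no peak in library 1. Chains of 10 or more peaks with gaps of at most 500 bases numbered 26 in library 1 and 45 in library 2, and chains with every peak below the library's median signal numbered 4 and 9. No replicate beyond library 2 shows the stretch.

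Outside this stretch the peaks found in only 1 library were few and weak, 9 in library 1 from 0.259 to 0.565 and 6 in library 2 from 0.259 to 0.456. The strongest of library 1 were 0.565 in Hoxa between Hoxa4 and Hoxa5, 0.470 in Hoxb between Hoxb5 and Hoxb4, 0.272 in Hoxc in a UTR between the starts of Hoxc13 and Hoxc12 and 0.544 in Hoxd between Hoxd13 and Hoxd12. The strongest of library 2 were 0.456 in Hoxa near Hoxa13, 0.370 in Hoxb between Hoxb3 and Hoxb2, 0.401 in Hoxc in a coding exon, and 0.271 in Hoxd beyond Hoxd1. The Hoxb peak of library 2 lay beside a library 1 peak of 0.293 that it did not overlap.

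Most other genes of the windows were of noncoding types, which are less often open anywhere. Of 63 annotated genes that were no Hox genes, 5 were open at a start in both libraries (all annotated genes, 32.6%). Ttll6, 1 of 5 protein-coding neighbours, had 0.789 and 1.23. Hoxd3os1, 9530018H14Rik, Gm11536 and Haglr were noncoding or unclassified, and 0 of 7 microRNA genes (all such genes, 12.3%) and 0 of 8 long intergenic RNA genes (19.5%) were open. These numbers are too small to read a difference from.

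Lists of genes that act with or on the clusters were drawn up for their known roles. In the first of these lists, given here, every gene was open in both libraries (all genes, 63.6%). This did not hold for the upstream regulators given next. The TALE cofactors, homeodomain proteins that bind DNA together with Hox proteins, were open in both libraries in 9 of 9 cases. Pknox1 had the highest mean signal (8.28 ± 2.25) and Meis3 the lowest (1.10 ± 0.266). Of the Polycomb genes, whose products keep Hox genes silent, 27 of 27 were open, with Cbx8 (9.57 ± 0.278) and Jarid2 (8.85 ± 0.585) highest and Bmi1 (1.57 ± 0.288) lowest. Of the Trithorax genes, whose products oppose Polycomb, 10 of 10 were open, with the histone demethylase gene Kdm6a (12.7 ± 1.35) and the histone methyltransferase gene Kmt2a (6.19 ± 0.509) highest and Kdm6b (1.08 ± 0.153) lowest. CTCF and cohesin genes were open in 7 of 7 cases, with Smc3 (8.03 ± 0.0609) and Stag1 (7.66 ± 0.314) highest and Stag2 (2.33 ± 0.139) lowest. CpG-rich starts, open in 95.4% of all such genes, were found in 4 of the 9 TALE genes, 26 of the 27 Polycomb genes, 7 of the 10 Trithorax genes and 7 of the 7 CTCF and cohesin genes, and the rest belong beside the 36.5% of other genes.

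Genes listed as upstream regulators of Hox genes in the embryo were open in both libraries in 7 of 14 cases (all genes, 63.6%). CpG-rich starts, open in 95.4% of all such genes, were found in 8 of the 14. The retinoic acid receptor gene Rarg (3.88 ± 0.635) was highest, and Cdx1, Cdx2 and Cyp26c1 had no peak in either library. Homeobox genes linked to the clusters or of the sister ParaHox cluster were open in 1 of 6 cases, Gsx1, at 0.844 and 0.635. A CpG-rich start was found in 5 of these 6. Gsx2 had 0.354 in library 1 and none in library 2, and Evx1, Evx2, Mnx1 and Pdx1 had none.

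Homeobox genes of the forebrain offered the closest comparison by family. Of these 20 genes 15 were open in both libraries, against 63.6% of all protein-coding genes. CpG-rich starts, open in 95.4% of all such genes, were found in 17 of the 20. Lhx2 (3.18 ± 0.190), a cortical patterning gene, and Pou3f2 (2.35 ± 0.146), a gene of upper-layer neurons, were highest, and Nkx2-1, Otx2 and Six3 had no peak. Of 17 midbrain and hindbrain genes, 12 of them with a CpG-rich start, 2 were open in both, Zic2 (0.891 ± 0.153) and Pax5 (0.743 ± 0.0564). Lmx1b, Pax8, Phox2a, Ptf1a and Zic5 had no peak in either library. In library 1 this list had 3 open genes and in library 2 it had 11. That is the same direction between the libraries as for Hoxa2 and Hoxb13.

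**Figure D4:**
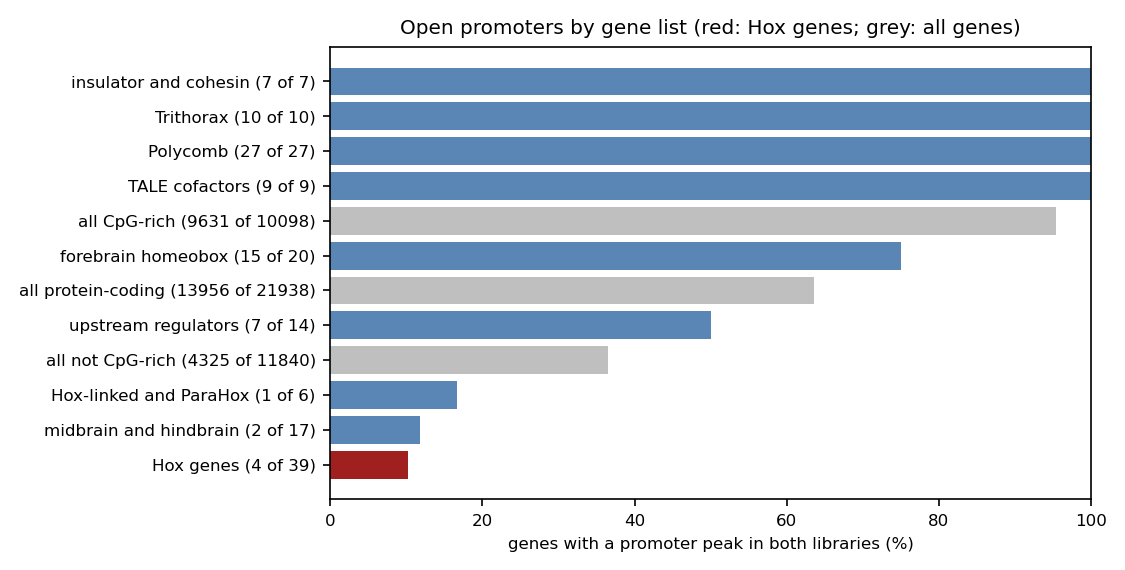
Percent of genes open at the promoter in both libraries, by gene list (blue), for the Hox genes (red) and for all protein-coding genes, those with a CpG-rich principal start and the rest (grey), with counts in the labels. The Hox genes, at 4 of 39, are the lowest bar, next to midbrain and hindbrain genes at 2 of 17, and forebrain homeobox genes reach 15 of 20.

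Markers were checked against the labelled tissue. Of all protein-coding genes 64.5% were open in library 1, 66.5% in library 2 and 63.6% in both. CpG-rich starts, open in 95.4% of all such genes (others, 36.5%), were found in 3 of 6 cortex and 4 of 7 hindbrain and spinal cord markers. They were found in 2 of 6 leptomeningeal, 2 of 6 endothelial, 1 of 6 microglial and 0 of 6 blood markers. Cortex markers were open in 6 of 6 cases in both libraries, with a summed promoter signal of 8.80 in library 1 and 9.84 in library 2. Markers of hindbrain and spinal cord, where Hox genes are used, were open in 1 of 7 cases in library 1 and 5 of 7 in library 2, with summed signals of 0.817 and 2.25. Of these, Lbx1 and Phox2a were at 0 in both libraries, and Slc17a6 alone was open in both, at 0.817 and 0.900. Those open in library 2 only were weak, at 0.321 to 0.358. The part of such cells in the library 2 values of Hoxa2 and Hoxb13 was not tested. Leptomeningeal markers were open in both libraries in 2 of 6 cases (summed 3.89 and 3.72), endothelial markers in 1 of 6 (0.544 and 1.94), microglial markers in 2 of 6 (4.92 and 4.98) and blood markers in 0 of 6 (0 and 0). Counted per library, open endothelial markers also rose, from 1 of 6 in library 1 to 3 of 6 in library 2. Leptomeningeal markers went from 3 to 2, and microglial markers stayed at 3.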

How the data were processed

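DNase-seq of 2 libraries of left cerebral cortex gave, per library and per the deposited readme files, 2 peak lists, a footprint list and a per-base table on mm10, each made from that library alone. Which aligner and peak caller were used, and how reads from the CAST genome were placed, was not given in the sources used here. Column 7 of the deposited peak lists was taken as the signal, in the authors' own scaling, which no label states. A false discovery rate, here called a q-value, stands beside each run of bases in the deposited tables, where it is under 0.05 throughout. Footprints deposited by the authors all carry a q-value of 0.01. Of the listed bases, 35.9% in library 1 and 37.5% in library 2 lay outside the peaks of the longer list, which was used throughout (shorter list, 79331 and 84096 peaks).

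Starts, exons and principal (APPRIS) transcripts came from GENCODE M21, and sequences from RefSeq GRCm38.p6. A window held a peak by its midpoint, peaks overlapped with at least 1 shared base, and an unpeaked promoter counted as 0. Counts and motif searches were made with Python 3.11.15, numpy 2.4.6 and pandas 2.3.3, exact binomial intervals with scipy 1.17.1, and figures with matplotlib 3.10.9. The counting steps were tested on simulated data. With 1 group of 2 libraries no test of a difference was made; members are described beside all features. The Hox genes, lists and motifs were chosen with earlier results of these data known. Named were every Hox gene with a promoter peak, the 2 highest and the lowest gene of each list, open protein-coding neighbours, the 3 strongest matched pairs per window and the strongest unshared peak per window and library; other neighbours, genes added by wider windows and the Hoxa2 stretch were named after their values were seen. Alternatives were other windows, peak lists, signal and false discovery rate thresholds, flanks and each library alone. Some genes of the lists and clusters enter the counts but are not reported here by name.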

Additional observations from a re-analysis of the deposited data

How the results depend on the processing

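Of 124 alternative values over 21 results, 87 stayed within the spread and 37 moved. No paired analysis was possible because there was 1 group only. The count of Hox genes open in both libraries was 4, and was 9 with 2000 bases, 2 with the shorter list, 2 with peaks at or above the median signal and 2 with principal starts only (added after seeing the data). In the same order as far as they moved, Hoxa went from 2 to 1, 1 and 0 under the last 3, Hoxb from 0 to 3 and Hoxc from 1 to 2 with 2000 bases, and Hoxd from 1 to 0 with the shorter list and with strong peaks; with each library alone Hoxb had 0 to 1. Mean peaks per window with strong peaks were 5.5 in Hoxa, 6 in Hoxb, 2 in Hoxc and 4.5 in Hoxd, with the shorter list 2 in Hoxc and 4 in Hoxd, without flanks 4.5 in Hoxd, and without the Hoxa2 stretch (added) 7.5 in Hoxa. Each library alone gave 8 to 21 peaks, 13 to 27 footprints and 2178 to 6919 bases under the false discovery rate of 0.05 in Hoxa, and 2200 bases without the stretch. At a rate of 0.001 the bases were 2937.5 in Hoxa, 1757 in Hoxb, 448 in Hoxc and 852 in Hoxd, at 0.005 they were 583 in Hoxc, and without flanks 2041.5 in Hoxb. Hoxc had 4 footprints within peaks of the shorter list. The shared percent was 95 (library 1, shorter list), 88.2 (library 1, strong peaks), 78.9 (library 2, strong peaks) and 80.6 (library 2, without the stretch). The CTCF core was in 9.22% of window peaks (all peaks, 7.82% in library 1 and 7.79% in library 2). The looser degenerate consensus (added), at most 2 letters off, was in 35.0% (all peaks, 17.9% and 18%). The cause was not tested. Read depth is unknown, so weak peaks in 1 library cannot be told from a difference in depth.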
